A study of Mus musculus with 3 samples.

Results

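The cells described here are Folr2-type macrophages of the mouse heart in which no Timd4 transcript was captured, 149 cells in all. They came from 2 libraries of sorted interstitial cells, with 95 in the Lin28+/cKit+ library and 54 in the Lin28+/cKit- library, out of 1857 cells in both and 5833 cells in the 3 libraries of the series. UMIs, unique molecular identifiers, stand for single captured transcripts. A cell with 1500 UMIs or more was taken as a macrophage when the mean natural log (ln) value of C1qa, C1qb, C1qc, Csf1r and Cd68 was at least 0.5 and exceeded the means of 5 fibroblast and 5 endothelial genes. It was kept when the mean ln value of Folr2, F13a1, Cbr2 and Vsig4 was at least 1 and Timd4 was at 0. The cells were thus chosen by the measured values of these genes, whose levels are a description and support nothing.

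Hearts were minced and digested with collagenase II, cardiomyocytes and debris were spun out, and the remaining cells were sorted by flow cytometry on Lin28 and cKit at the cell surface. The Lin28+/cKit+ and Lin28+/cKit- groups were sorted as positive for Lin28 with or without cKit, and the Lin28-/cKit- group as negative for both. Each group is 1 library made with the 10x Chromium 3' chemistry, so there is no replicate, no test and no p-value, and every interval covers counting error only. The strain, age, sex and number of animals were not given in the sources used here, and no treatment is named. A difference between the 2 libraries cannot be told apart from a difference between their sorts, animals or preparations.

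Resident heart macrophages that express Folr2 and Lyve1 lie along vessels, take up dead cells and debris, and largely maintain themselves without input from blood monocytes. Timd4 encodes Tim-4, a receptor for the phosphatidylserine that dying cells expose, and it is often used with Folr2 and Lyve1 to mark this resident population. Macrophages rich in MHC class II and Ccr2 are, in contrast, more often renewed from monocytes.

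The rule selected on the 4 marker genes of the label, so their detection is a description of what it kept, and Vsig4 was missing from most cells. In the Lin28+/cKit+ and Lin28+/cKit- libraries, Folr2, the folate receptor beta gene, had a UMI in 94.7% and 87.0% of the cells. The coagulation factor gene F13a1 had one in 100% and 100%, and the carbonyl reductase gene Cbr2 in 97.9% and 92.6%. Vsig4, a complement receptor gene, had one in only 12.6% and 14.8%. In endothelial cells of the same libraries, which should lack these genes, Folr2 was found in 11.6% and 8.08% of cells and Vsig4 in 0.893% and 0.385%, at lower median depths of 5640 and 7832.5 UMIs. Mrc1, the mannose receptor gene that the rule did not use, was found in 98.9% and 98.1% of the cells and in 12.9% and 14.6% of endothelial cells.

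Markers of other cell types were low in these cells. In both libraries 6 of 8 monocyte markers, among them Ly6c2, Plac8, Chil3 and Vcan, were at 0, and the list summed to 31.2 CPM (counts scaled to a common total) in the Lin28+/cKit+ cells and 25.3 CPM in the Lin28+/cKit- cells. All 9 mast cell markers were at 0 in both. The 10 endothelial markers summed to 531 and 345 CPM, which is 1.93% and 1.28% of the level in endothelial cells, and 1 cell held 31.2% of these UMIs in each library. The B cell list summed to 184 and 198 CPM with Cd79a and Ms4a1 at 0. Kit (ENSMUSG00000005672.12, mm10 chromosome 5, 75574916 to 75656722), the gene for the sorted receptor, had 0 UMIs in 95 Lin28+/cKit+ cells and 0 in 54 Lin28+/cKit- cells, which allows levels of up to 2.92 and 4.75 CPM if 3 counts are taken as the limit for a count of 0 (exact Poisson upper bounds 3.59 and 5.84 CPM). Endothelial cells held 18.6 and 22.9 CPM of Kit, so in both classes the transcript was no higher in the library sorted for the receptor.

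Absence of Timd4 (ENSMUSG00000055546.6, mm10 chromosome 11, 46810800 to 46844332) moved with the depth of the cell. Of the Folr2-type macrophages with 1500 to 5000 UMIs, 8 of 11 in the Lin28+/cKit+ library (72.7%) and 9 of 10 in the Lin28+/cKit- library (90.0%) lacked a Timd4 UMI. Of those with at least 20000 UMIs, 5 of 50 (10.0%, exact binomial 95% interval 3.33 to 21.8%) and 5 of 64 (7.81%, 2.59 to 17.3%) lacked one. The shares fell band by band in both libraries. Even cells with Timd4 held few copies, a median of 2 UMIs in the Lin28+/cKit+ library and 3 in the Lin28+/cKit- library, with exactly 1 UMI in 74 of 185 and 36 of 134. The cells without a Timd4 UMI are therefore called by that rule here, since a missing UMI does not show that a cell lacked the transcript.

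**Figure D1:**
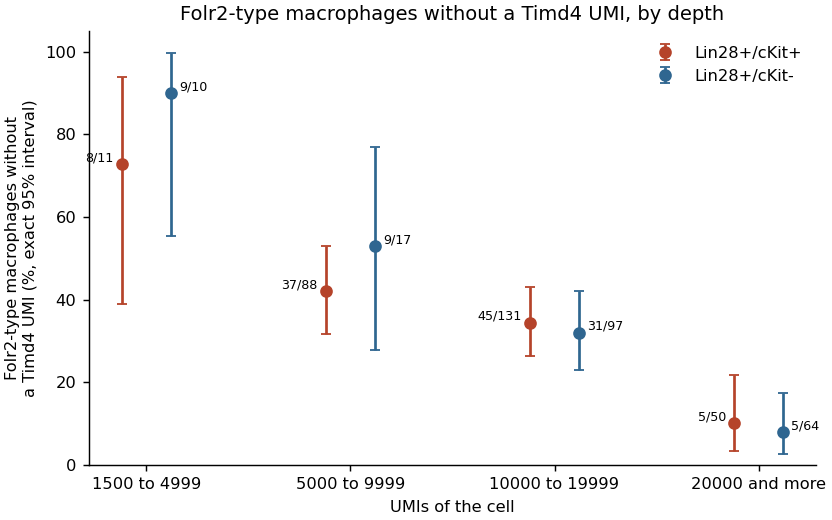
Share of Folr2-type macrophages without a Timd4 UMI (vertical axis, percent, bars for exact binomial 95% intervals) by the UMIs of the cell (horizontal axis, 4 bands), with red for Lin28+/cKit+, blue for Lin28+/cKit- and the counts beside each point. In both libraries the share is highest under 5000 UMIs, at 72.7% and 90.0%, and lowest from 20000 UMIs, at 10.0% and 7.81%.

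Median depth was 10156 UMIs in the Lin28+/cKit+ cells and 11419.5 UMIs in the Lin28+/cKit- cells, below the 12143 and 18292.5 UMIs of Folr2-type cells with a Timd4 UMI. The cells summed to 1027224 and 632047 UMIs, with median mitochondrial shares of 6.60% and 6.06%. The median share of Gm42418 and AY036118, loci whose reads are known to hold ribosomal RNA, was 2.04% and 3.91%. The 2 libraries shared 1 cell barcode, and none among these cells. At the Folr2-type threshold, 18 Lin28+/cKit+ macrophages lay within 0.1 above the value of 1 and 27 within 0.1 below it, against 4 and 6 in the Lin28+/cKit- library, and the medians of the cells kept were 1.33 and 1.46.

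At the depths sequenced, cells without a Timd4 UMI made up shares of macrophages whose intervals overlap between the libraries, but thinned cells gave a wider gap. They were 95 of 624 macrophages in the Lin28+/cKit+ library (15.2%, 12.5 to 18.3%) and 54 of 286 in the Lin28+/cKit- library (18.9%, 14.5 to 23.9%). As a share of Folr2-type macrophages they were 33.9% (28.4 to 39.8%) and 28.7% (22.4 to 35.8%). Folr2-type cells with a Timd4 UMI were 29.6% and 46.9% of macrophages, and macrophages below the Folr2-type threshold, called Folr2-low, were 55.1% and 34.3%. The larger gaps between the libraries lay in the Timd4-positive and Folr2-low cells, whose shares have intervals of 26.1 to 33.4% against 41.0 to 52.8% and 51.1 to 59.1% against 28.8 to 40.1%. The median depth of macrophages was 9846.5 UMIs in the Lin28+/cKit+ library and 13618 UMIs in the Lin28+/cKit- library. After each cell was thinned to 1500 UMIs before the rule, 28.4% of Lin28+/cKit+ and 43.2% of Lin28+/cKit- macrophages met the rule. At 1500 UMIs, 85.0% of Lin28+/cKit+ and 83.0% of Lin28+/cKit- Folr2-type macrophages were expected to lack a Timd4 UMI, against 33.9% and 28.7% observed. The thinned shares thus largely count cells that hold a Timd4 UMI at full depth. The overlap at the depths sequenced is not read as equal shares, and the gap in thinned cells is not read as unequal ones. In the Lin28-/cKit- library only 15 cells met the macrophage rule, of which 1 was Folr2-type without Timd4, 0 had Timd4 and 14 were Folr2-low.

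Between the libraries, 6 of 15 chemokine genes were higher and the chaperone gene Hspa1b lower in Lin28+/cKit+ cells. Of 3867 genes measured (at least 50 UMIs over both libraries, genes of the rule left out), 172 (4.45%) were at least 1.5-fold higher in Lin28+/cKit+ than in Lin28+/cKit- cells and 281 (7.27%) at least 1.5-fold lower. The median log2 ratio was -0.01. The counting interval of the ratio excluded 1 for 100 of the higher and 176 of the lower genes. With TMM scaling, a trimmed mean of ratios that sets the totals, the split was 218 higher and 214 lower. The counts of each list are read against these shares.

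Dusp2 (ENSMUSG00000027368.6, mm10 chromosome 2, 127336159 to 127338376), a phosphatase gene that acts on MAP kinases, had the largest ratio among genes that reached 100 CPM in either library, with Gm, Rik, mitochondrial, haemoglobin and ribosomal protein genes passed over. It held 153 UMIs (149 CPM) in Lin28+/cKit+ cells and 27 UMIs (42.7 CPM) in Lin28+/cKit- cells, a ratio of 3.49 (2.30 to 5.46). It was found in 38 of 95 and 13 of 54 cells. In Folr2-type cells with Timd4 the log2 ratio of Dusp2 was -0.14, and when cells were chosen without regard to Timd4 it was 0.23, under the 1.5-fold line. No other of the 25 measured immediate early genes passed 1.5-fold, Jun lying at 5258 and 4372 CPM and Fos at 4417 and 5384 CPM.

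The chemokine list had the highest median of the 22 lists. Of 15 measured chemokines, 6 were higher in Lin28+/cKit+ cells, 0 were lower, and the median log2 ratio was 0.52, against 4.45% of all genes higher and a median of -0.01. The same list had medians of 0.09 in Folr2-type cells with Timd4, 0.19 in Folr2-low macrophages and 0.45 in endothelial cells. C1qa, a macrophage gene, reached 155 CPM in Lin28+/cKit+ and 86.1 CPM in Lin28+/cKit- endothelial cells, and the part of free RNA in the chemokine values was not tested. When Timd4 was ignored, 3 of 17 chemokines were higher and 1 lower, with a median of 0.13. Without the cell with the most endothelial markers in each library, 5 of 14 chemokines were higher and 0 lower, with a median of 0.44. That setting was chosen after the data were seen.

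Cxcl10 (ENSMUSG00000034855.13, mm10 chromosome 5, 92346638 to 92348889), an interferon-induced attractant of T cells, had 1298 CPM in Lin28+/cKit+ cells (1333 UMIs in 62 of 95 cells) and 674 CPM in Lin28+/cKit- cells (426 UMIs in 30 of 54). The ratio was 1.93 (1.73 to 2.15). It was 0.07 on the log2 scale when only cells with a Folr2-type mean of at least 1.5 were kept. Ccl12 (ENSMUSG00000035352.3, mm10 chromosome 11, 82101845 to 82103400), a monocyte attractant, had 448 and 258 CPM, a ratio of 1.74 (1.45 to 2.09), and was past 1.5-fold under each of 18 alternatives.

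Ccl4, another attractant of leukocytes, had 5269 CPM in Lin28+/cKit+ cells and 3509 CPM in Lin28+/cKit- cells, a log2 ratio of 0.59 that lies at the line. Ccl24, an eosinophil attractant, had 384 and 244 CPM, a ratio of 1.57 (1.30 to 1.91). Ccl8 and Cxcl12 also passed, but 44 of the 55 Ccl8 UMIs and 44 of the 61 Cxcl12 UMIs of the Lin28+/cKit+ cells lay in a single cell each. Ccl2, Ccl3 and Cxcl2 held 1375, 1720 and 15056 CPM in Lin28+/cKit+ cells and 1062, 1201 and 12673 CPM in Lin28+/cKit- cells, all under 1.5-fold.

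Lower in the Lin28+/cKit+ cells was Hspa1b (ENSMUSG00000090877.3, mm10 chromosome 17, 34956436 to 34959238), an inducible Hsp70 chaperone gene. It had 418 CPM (429 UMIs in 64 of 95 cells) in Lin28+/cKit+ cells and 970 CPM (613 UMIs in 43 of 54 cells) in Lin28+/cKit- cells, a ratio of 0.43 (0.38 to 0.49). The median over cells was 168 and 265 CPM, and the cell with the most had 2765 and 9624 CPM. It was -0.49 on the log2 scale when Timd4 was ignored, and -0.28, -0.46 and -0.68 in Timd4-positive, Folr2-low and endothelial cells. Hspa1a, a nearly identical copy on the same chromosome, had 1800 and 2081 CPM, and reads of the 2 genes are uncertain where the counting could split them. No other of the 20 measured heat shock genes passed 1.5-fold, and the list's median was 0.02.

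The stretches before the starts of Hspa1b and Cxcl10 are shown because Hspa1b was the heat shock gene past the line and Cxcl10 the chemokine gene with the largest ratio among genes with at least 100 CPM. They are RefSeq sequence of GRCm38.p6, 250 bases before each start on the gene's strand, minus for both. Capitals mark 1 motif match in each, GAANNTTC of the heat shock element in Hspa1b and, in Cxcl10, TTTC, 2 bases of any kind and TTTC of the interferon-stimulated response element, which reads here in its reverse complement.
Hspa1b, chr17:34959239-34959488: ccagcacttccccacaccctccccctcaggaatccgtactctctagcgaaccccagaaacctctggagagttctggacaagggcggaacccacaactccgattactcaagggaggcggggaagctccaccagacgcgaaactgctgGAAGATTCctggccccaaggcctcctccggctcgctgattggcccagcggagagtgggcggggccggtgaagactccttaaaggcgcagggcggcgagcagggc
Cxcl10, chr5:92348890-92349139: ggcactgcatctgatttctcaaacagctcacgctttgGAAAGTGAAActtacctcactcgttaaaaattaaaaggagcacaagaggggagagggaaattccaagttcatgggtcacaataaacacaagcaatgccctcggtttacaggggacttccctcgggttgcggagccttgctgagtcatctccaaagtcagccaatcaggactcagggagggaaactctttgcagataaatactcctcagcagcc

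The match began 104 bases before the Hspa1b start and 213 bases before the Cxcl10 start. Both were found in a search of 8 genes for 4 motifs on both strands, chosen after values were seen. The genes were Hspa1b, Cxcl10, Ccl12, Dusp2, Tnf, Folr2, Errfi1 and Lyve1, of which 7 had an entry. The motifs were the 2 above, TATAAA of the TATA box, and GGG, 2 bases of any kind and TTTCC of the kappa B site, and 5 of 36 searches over 9 windows had a match, the other 3 being TATAAA in Ccl12, Tnf and 1 of 2 Errfi1 windows. Of 32851 promoters, 6.69% hold the heat shock element, 2.98% the interferon-stimulated response element, 12.4% the TATA box and 1.41% the kappa B site, by the same letters in the same length. A match is a description of letters, not a site or a cause. Each motif was searched by these letters only, and other forms of it were not searched. A window without a match, such as Cxcl10 for kappa B, may therefore hold another form, and the percentages count these letters alone.

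**Figure D2:**
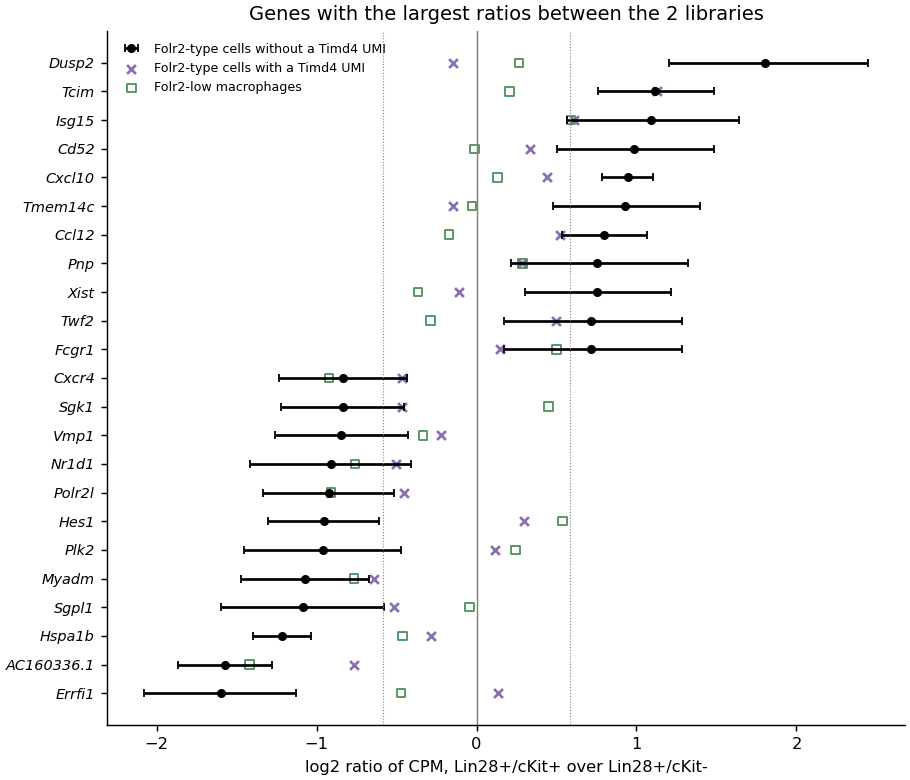
Log2 ratio of CPM in Lin28+/cKit+ over Lin28+/cKit- (horizontal axis) for the named genes (vertical axis), with black points and counting 95% intervals for Folr2-type cells without a Timd4 UMI, purple crosses for those with one, green squares for Folr2-low macrophages and dotted lines at 1.5-fold. Dusp2 is at 1.80 in the black points and at -0.14 in the crosses, while Tcim is at 1.12 in the points, 1.13 in the crosses and 0.21 in the squares.

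Among the remaining named genes that were higher in Lin28+/cKit+ cells, Tcim had 288 and 133 CPM in Lin28+/cKit+ and Lin28+/cKit- cells and Isg15, an interferon-induced ubiquitin-like protein gene, 131 and 61.7 CPM. Cd52, a surface glycoprotein gene of leukocytes, had 147 and 74.4 CPM, and Fcgr1, the high-affinity IgG receptor gene, 101 and 61.7 CPM. Xist, which is transcribed from the inactive X chromosome of female cells, had 152 and 90.2 CPM and was found in 22 of 95 and 7 of 54 cells. The part of the sex of the animals in any difference was not tested. Tmem14c, Pnp and Twf2 followed, with ratios of 1.90, 1.69 and 1.64.

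Among those lower in Lin28+/cKit+ cells, Errfi1 (ENSMUSG00000028967.10, mm10 chromosome 4, 150853919 to 150868892), a feedback inhibitor gene of EGF receptor signalling, had 57.4 CPM in Lin28+/cKit+ cells and 174 CPM in Lin28+/cKit- cells, a ratio of 0.33 (0.24 to 0.46). It was 0.14 on the log2 scale in Timd4-positive cells and -0.28 when Timd4 was ignored. Hes1, a repressor gene downstream of Notch, had 126 and 244 CPM, Sgk1, a kinase gene induced by glucocorticoids, 108 and 193 CPM, and Cxcr4, the receptor gene for Cxcl12, 99.3 and 177 CPM. The polo-like kinase gene Plk2 and the clock repressor gene Nr1d1 had 64.2 and 62.3 CPM in Lin28+/cKit+ cells and 125 and 117 CPM in Lin28+/cKit- cells. Sgpl1, Polr2l, Vmp1, Myadm and AC160336.1 had ratios of 0.47, 0.53, 0.56, 0.48 and 0.34. AC160336.1 and Myadm also passed 1.5-fold the same way in Timd4-positive, Folr2-low and endothelial cells, with log2 ratios in endothelial cells of -1.29 and -0.93. Isg15 did so in Timd4-positive and Folr2-low cells, at 0.61 and 0.59, and Tcim in Timd4-positive cells, at 1.13. Cxcr4, Polr2l and Nr1d1 did so in Folr2-low cells, at -0.92, -0.91 and -0.76. In endothelial cells Cxcl10, Ccl12, Xist, Fcgr1, Cd52 and Hspa1b passed the same way too, at 1.15, 0.94, 0.92, 0.81, 0.59 and -0.68, of which Fcgr1 and Cd52 rest on 9 and 21 UMIs, and the part of free RNA or of the library in these values was not tested.

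Inflammatory genes did not move one way. Of 23 measured, 1 was higher and 5 lower, with a median of -0.08, against 4.45% of all genes higher and 7.27% lower. With at least 200 UMIs 1 was higher and 0 lower of 13, and with Timd4 ignored 0 were higher and 1 lower of 30. Tnf, the gene of the cytokine TNF, had 659 CPM in Lin28+/cKit+ cells and 419 CPM in Lin28+/cKit- cells, a ratio of 1.57 (1.36 to 1.82), but its log2 ratio was -0.077 with a Folr2-type threshold of 1.5 and -0.033 when Timd4 was ignored. Without the cell with the most endothelial markers in each library, 0 inflammatory genes were higher, Tnf included, and 6 lower of 22. The 5 lower ones of the 23 were Il10, Myd88, Nfkb2, Zc3h12a and Osm. They had 10, 27, 25, 49 and 39 UMIs in Lin28+/cKit+ cells and 41, 33, 30, 50 and 37 UMIs in Lin28+/cKit- cells. Of the 41 Il10 UMIs, 32 lay in 1 cell. Of 10 interferon response genes 1 was higher, Isg15, and none lower.

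Growth factor and trophic genes had 0 higher and 4 lower of 22, a median of -0.10, against 4.45% of all genes higher and 7.27% lower. With at least 200 UMIs 0 were higher and 0 lower of 11, and with Timd4 ignored 0 were higher and 1 lower of 24. The growth factor genes Pdgfb and Hbegf had 24.3 and 22.4 CPM in Lin28+/cKit+ cells and 55.4 and 44.3 CPM in Lin28+/cKit- cells. Areg, the amphiregulin gene, had 58.4 and 99.7 CPM, with 28 of 60 and 33 of 63 UMIs in 1 cell each, and Osm was the fourth. Igf1, an insulin-like growth factor gene, had 88.6 and 109 CPM. In lipid handling 2 of 14 were higher, the fatty acid carriers Fabp4 at 410 and 255 CPM and Fabp5 at 43.8 and 28.5 CPM, and the cholesterol exporter gene Abcg1 was lower. Fabp4 is also an endothelial marker here, with 141 of its 421 UMIs and 59 of its 161 UMIs in 1 cell each.

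Genes of uptake and antigen presentation stayed within 1.5-fold. None of 19 scavenger, 10 MHC class II, 13 MHC class I, 7 monocyte, 21 iron and haem or 8 let-7 target genes passed. Of all genes measured 11.7% passed either way, but with at least 200 UMIs only 15 higher and 28 lower of 973 did. In these lists 14 scavenger, 7 MHC class II and 8 MHC class I genes had that many UMIs. Counts of 0 are therefore near the background and are not read as stability of these genes. Mrc1 had 1049 and 1149 CPM in Lin28+/cKit+ and Lin28+/cKit- cells, Lyve1, the hyaluronan receptor gene, 334 and 351 CPM, and Cd163, the haemoglobin scavenger receptor gene, 153 and 201 CPM. The MHC class II genes H2-Aa and Cd74 had 2779 and 8273 CPM in Lin28+/cKit+ cells and 3558 and 9976 CPM in Lin28+/cKit- cells. The senescence and p53 list had 1 higher, Bax, and 1 lower, Plk2, of 12, and Cdkn1a, the p21 gene, had 583 and 568 CPM, a ratio of 1.03 (0.90 to 1.17). With a Folr2-type threshold of 1.5 the log2 ratio of Cdkn1a was -1.22.

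The other lists held 1 to 3 genes past the line each. Macrophage transcription factors had Batf3 higher and Mitf and Tcf4 lower of 19. Lysosomal genes had Glb1 higher and Npc1 lower of 25, and complement and Fc receptor genes had Fcgr1 higher of 13. Cxcr4 of 22 cytokine and chemokine receptors, Atf6 of 16 unfolded protein response genes, Ddx3x of 19 stress granule genes, Tuba1b of 6 cell cycle genes and mt-Nd3 of 13 mitochondrial genes were lower. Against 11.7% of all genes past 1.5-fold either way, these counts are near the background.

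**Figure D3:**
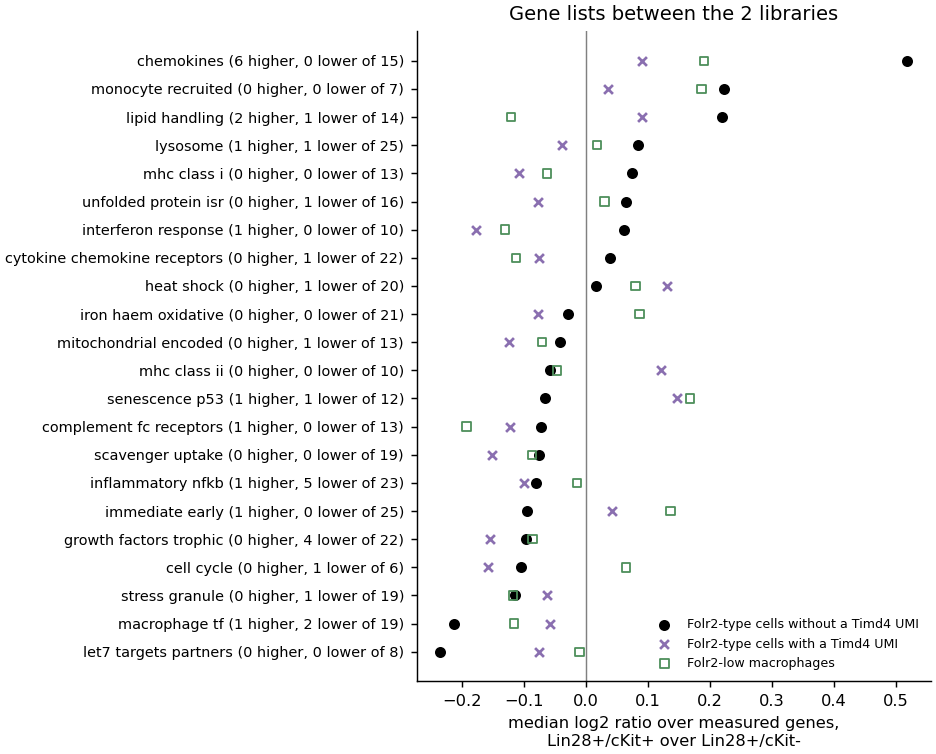
Median log2 ratio of Lin28+/cKit+ over Lin28+/cKit- (horizontal axis) over the measured genes of each of 22 lists (vertical axis, with counts past 1.5-fold in cells without a Timd4 UMI), with black points for Folr2-type cells without a Timd4 UMI, purple crosses for those with one and green squares for Folr2-low macrophages. The chemokine list stands at 0.52 in the black points and at 0.09 in the crosses.

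Single cells within each library spanned a wide range. The MHC class II list summed to between 1737 and 51344 CPM in single Lin28+/cKit+ cells, with a median of 12167 CPM, and to between 463 and 49453 CPM in Lin28+/cKit- cells, with a median of 13969 CPM. The chemokine list had medians of 29203 and 18713 CPM per cell and maxima of 98862 and 97152 CPM. Lyve1 had a UMI in 56.8% of Lin28+/cKit+ cells and 72.2% of Lin28+/cKit- cells, and in 9.15% and 9.23% of endothelial cells. At a common depth of 1500 UMIs the expected shares were 29.9% and 34.7% of the cells without Timd4.

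Retnla, a secreted protein gene of alternatively activated macrophages, reached 10098 CPM in 1 Lin28+/cKit+ cell and 5195 CPM in 1 Lin28+/cKit- cell, with medians of 0. It was found in 33.7% and 42.6% of the cells, against 18.3% and 26.5% of endothelial cells. Ccr2, the chemokine receptor gene of monocyte-derived macrophages, was found in 10.5% and 9.26% of the cells, against 0.223% and 1.15% of endothelial cells. Mki67, a proliferation gene, was found in 7 of 95 and 3 of 54 cells. Across cells, summed MHC class II and Lyve1 had Spearman correlations of -0.28 (95 cells) and -0.25 (54 cells), too weak to read, and summed chemokine and inflammatory genes of 0.61 and 0.61, over cells that share a library. In the Lin28+/cKit- cells both sums also went with the UMIs of the cell (Spearman 0.35 and 0.36), against 0.043 and 0.0062 in the Lin28+/cKit+ cells.

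**Figure D4:**
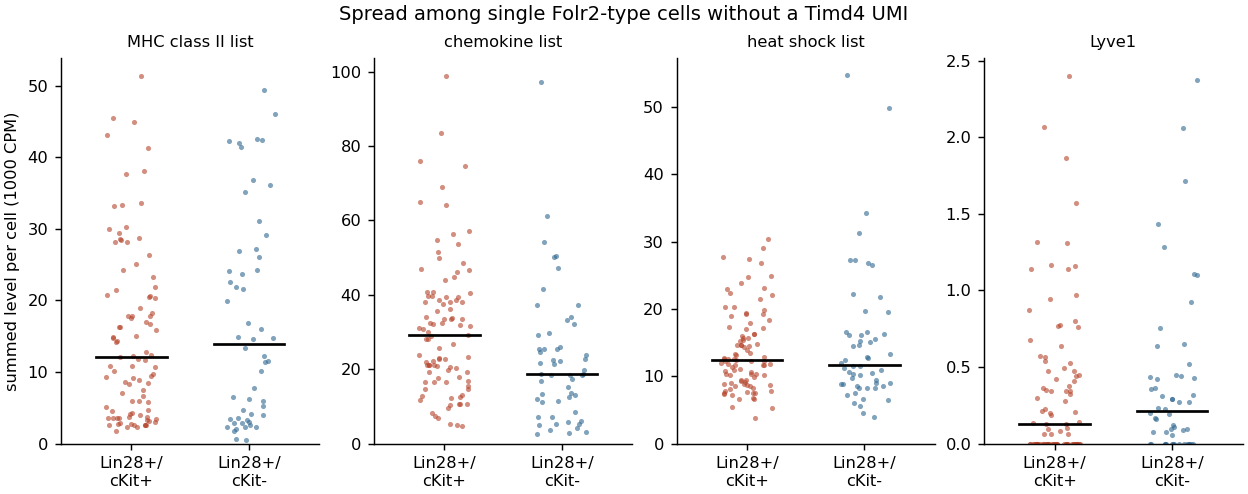
Summed level per cell (vertical axes, in units of 1000 CPM) of the MHC class II, chemokine and heat shock lists and of Lyve1 in single Folr2-type cells without a Timd4 UMI, 95 Lin28+/cKit+ cells in red and 54 Lin28+/cKit- cells in blue, with black lines at the medians. The MHC class II sums span 1737 to 51344 CPM in the Lin28+/cKit+ cells and 463 to 49453 CPM in the Lin28+/cKit- cells.

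Set beside Folr2-type cells with a Timd4 UMI of the same library, the cells without one differed in few genes. Of 5929 genes measured, 10 (0.169%) were at least 1.5-fold higher in both libraries and 50 (0.843%) at least 1.5-fold lower. The sets were cut on expression in these cells and differ in depth, so this is a description. Fcna (ENSMUSG00000026938.10, mm10 chromosome 2, 25624666 to 25628030), the ficolin A gene of the lectin complement pathway, had 41.9 CPM without and 108 CPM with Timd4 in the Lin28+/cKit+ library, and 33.2 and 144 CPM in the Lin28+/cKit- library.

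Retnla (ENSMUSG00000061100.4, mm10 chromosome 16, 48842551 to 48844461) had 331 CPM without and 798 CPM with Timd4 in the Lin28+/cKit+ library, and 288 and 1219 CPM in the Lin28+/cKit- library. Lyve1 had 334 and 486 CPM, and 351 and 534 CPM, ratios of 0.69 and 0.66, and did not reach 1.5-fold in the Lin28+/cKit+ library. Nupr1 and Gdf15, genes of the stress response, had ratios of 0.65 and 0.66 in the Lin28+/cKit+ library and 0.55 and 0.54 in the Lin28+/cKit- library. Among genes that reached 100 CPM in either set of each library, Wfdc17, Nav1 and Ifi202b came next and, like Lyve1, did not pass in both.

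Mmp9 (ENSMUSG00000017737.2, mm10 chromosome 2, 164940780 to 164955850), a matrix metalloprotease gene, had 121 CPM without and 56.4 CPM with Timd4 in the Lin28+/cKit+ library and 150 and 94.1 CPM in the Lin28+/cKit- library. Among genes that reached 100 CPM in either set of each library, Mt2, Id2, AY036118, Orai1, Pmepa1 and Phlda1 came next but did not reach 1.5-fold in both. Among cells of at least 10000 UMIs (50 without and 131 with Timd4 in Lin28+/cKit+, 36 and 125 in Lin28+/cKit-), a comparison added after the data were seen, the ratios were 0.27 and 0.21 for Fcna, 0.31 and 0.25 for Retnla, 0.83 and 0.60 for Lyve1 and 2.08 and 1.52 for Mmp9.

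By list, 2 of 23 growth factor and trophic genes were higher in both libraries in the cells without Timd4, Mmp9 and Areg, and 2 were lower, Retnla and Gdf15. Areg had 58.4 CPM without and 28.5 CPM with Timd4 in the Lin28+/cKit+ library and 99.7 and 36.8 CPM in the Lin28+/cKit- library, with much of it in 1 cell. Of the scavenger, monocyte, inflammatory and interferon lists, 1 gene each was lower in both, namely Fcna, Ccr2, Il1a and Xaf1. Ccr2 had 22.4 CPM without and 36.5 CPM with Timd4 in the Lin28+/cKit+ library and 22.2 and 37.5 CPM in the Lin28+/cKit- library. Without Timd4 its levels rest on 23 UMIs in 10 cells and 14 UMIs in 5 cells, with 5 UMIs in 1 cell of each library. None of 10 MHC class II, 14 chemokine, 21 heat shock or 27 immediate early genes passed in both libraries. Over all 5929 genes only 0.169% were higher and 0.843% lower in both. Counts of 0 are thus near the background and are not read as likeness of the 2 sets. H2-Aa had 2779 CPM without and 2545 CPM with Timd4 in Lin28+/cKit+, and 3558 and 2242 CPM in Lin28+/cKit-.

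Set beside Folr2-low macrophages, 103 of 4029 genes (2.56%) were at least 1.5-fold higher in both libraries and 76 (1.89%) lower. These sets were cut on the 4 Folr2-type genes in these cells, so genes that vary with them can differ through the cut. Median depth in Folr2-low cells was 8954.5 UMIs in the Lin28+/cKit+ library and 11530.5 UMIs in the Lin28+/cKit- library. All ratios to Folr2-low cells are a description. Lyve1 (ENSMUSG00000030787.4, mm10 chromosome 7, 110850607 to 110863239) had 334 CPM against 41.7 CPM in Folr2-low cells of the Lin28+/cKit+ library and 351 against 52.2 CPM in the Lin28+/cKit- library. Retnla, Ltc4s, Ccl24, Emp1, Fxyd2, Ccl6 and Cd163 were the others with the largest ratios among genes of at least 100 CPM, with ratios of 2.05 to 7.40 in Lin28+/cKit+ and 2.25 to 4.59 in Lin28+/cKit-. Of the scavenger list 8 of 19 were higher and 0 lower, and of the growth factor list 9 of 21 were higher and 1 lower. Colec12, a collectin scavenger receptor gene, had ratios of 3.78 in Lin28+/cKit+ and 2.89 in Lin28+/cKit-, Gas6, a bridging protein gene of dead cell uptake, 2.01 and 2.04, and Igf1 2.46 and 2.33.

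The MHC class II list was lower in both libraries for 7 of 10 genes, H2-Aa at 2779 against 5848 CPM in Lin28+/cKit+ and 3558 against 6324 CPM in Lin28+/cKit-. Il1b, the interleukin-1 beta gene, had 187 against 905 CPM and 258 against 847 CPM. Cytip, Mmp13, H2-Eb1, Cd52, Stmn1, Glipr1 and Cd9 were the others with the lowest ratios among genes of at least 100 CPM, with ratios of 0.18 to 0.49 over both libraries. Of 24 inflammatory genes 5 were lower and 0 higher. Of 8 cell cycle genes 4 were lower, with ratios for Mki67 of 0.37 in Lin28+/cKit+ and 0.33 in Lin28+/cKit-. In the Lin28+/cKit- library 1 cell held 13 of the 16 Mki67 UMIs without Timd4, and 1 cell 51 of the 88 UMIs of the Folr2-low cells. Ccl3 and Ccl4 were lower too, with ratios of 0.65 and 0.54 in Lin28+/cKit+ and 0.51 and 0.50 in Lin28+/cKit-, while Ccl24, Ccl6 and Ccl9 were higher.

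**Figure D5:**
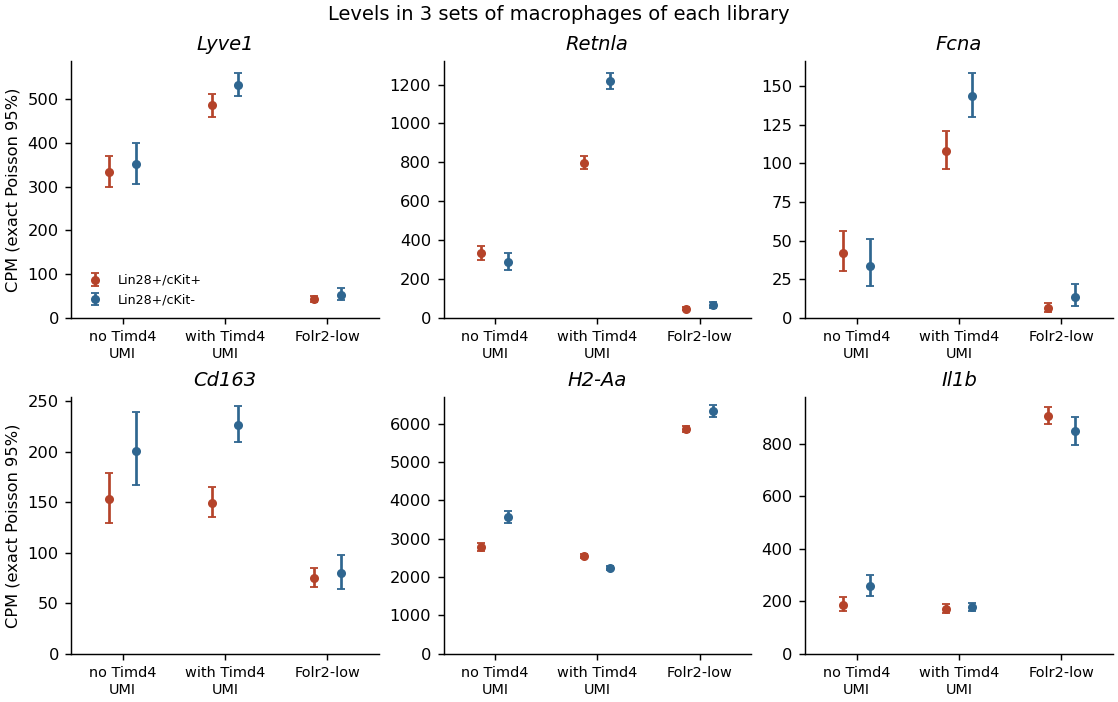
Level in CPM (vertical axes from 0, bars for exact Poisson 95% intervals) of Lyve1, Retnla, Fcna, Cd163, H2-Aa and Il1b in Folr2-type cells without a Timd4 UMI, those with one and Folr2-low macrophages (horizontal axes), with Lin28+/cKit+ in red and Lin28+/cKit- in blue. Lyve1 is at 334 and 351 CPM in cells without Timd4 and at 41.7 and 52.2 CPM in Folr2-low cells.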

How the data were processed

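Single interstitial cells of mouse hearts were measured with 10x 3' v3.1 chemistry, 1 library for each of 3 sorted groups. Per the submitters' processing notes, Cell Ranger (no version), Seurat 4.0.2 and mm10 were used. The deposited values are natural log (ln) values, ln(1 + 10000 times the UMIs of a gene over the UMIs of the cell). The plan had assumed sums of UMIs, and whole UMIs were recovered by undoing the log and dividing by the smallest value of each cell, which came out whole within 0.01 for 100% of values. Filters on cells before deposit were not given in the sources used here.

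For each class of cells in a library, UMIs were added up and scaled to CPM, with exact Poisson intervals for levels, exact conditional binomial intervals for ratios and Clopper-Pearson intervals for shares, all at 95% and for counting error only (Python 3.11.15, numpy 2.4.6, scipy 1.17.1, pandas 2.3.3, matplotlib 3.10.9). A gene was measured with at least 50 UMIs over both sums compared, and called at 1.5-fold, fewer than 3 UMIs being taken as 3. Between libraries the 12 genes with the largest ratios each way are named (with a level of 100 CPM or more and 50 or more UMIs where higher). Genes of the rule, mitochondrial, haemoglobin and ribosomal protein genes, and Gm and Rik genes were passed over. Beside other macrophages the 8 largest each way by the smaller of both ratios are named, among genes that in each library had 100 CPM or more in either set and 50 or more UMIs in the higher set. In each list described, the largest ratios are named, and Kit, Cdkn1a and a set of genes followed cell by cell are named whatever their values. Other genes were chosen after their values were seen. Cells, 22 gene lists and 14 marker lists were chosen with earlier results of these data known. Shares at 1500 UMIs are exact expectations of drawing that many UMIs from each cell. Endothelial cells had a mean ln of 5 endothelial genes of at least 0.5 that exceeded the other means. No doublet caller was run, and leaving out the 5% of cells with the most UMIs stands in for it. Positions are from GENCODE vM21. The calculations were tested on simulated counts. Alternatives covered scaling, minimum UMIs per gene and per cell, the thresholds of the rule, Timd4, depth and single cells. Transcripts of Lin28a and Lin28b were not analysed here. A few genes that the rules name are not reported here.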

Additional observations from a re-analysis of the deposited data

Results flagged for a closer look

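For 3 genes the ratio between the libraries lay past 1.5-fold in opposite directions in Folr2-type cells without a Timd4 UMI and in Folr2-low macrophages, and the difference was not tested. The log2 ratio of Lin28+/cKit+ over Lin28+/cKit- was -0.771 for Areg in the Folr2-type cells and 1.15 in the Folr2-low cells. It was 2.91 and -0.883 for Cxcl12. It was -2.74 and 2.08 for Il10. In the Folr2-type cells, 1 cell held 28 of 60 Lin28+/cKit+ and 33 of 63 Lin28+/cKit- UMIs of Areg. For Cxcl12, 1 cell held 44 of 61 and 2 of 5 UMIs, and for Il10, 1 cell held 7 of 10 and 32 of 41. Without the cell that holds most of each gene in each library the log2 ratios were -0.61 for Areg, 1.80 for Cxcl12 and -2.29 for Il10.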

How the results depend on the processing

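Counts of genes higher and lower in Lin28+/cKit+ cells, 172 and 281, depended on the minimum of UMIs and the fold. They were 563 and 785 with a minimum of 20 UMIs, 15 and 28 with 200, 1017 and 2195 with 3 UMIs in the higher library, and 34 and 42 at a fold of 2. They were 274 and 472 with means over cells, 93 and 94 with a Folr2-type threshold of 1.5, and 43 and 25 in thinned cells. With totals without Gm42418 and AY036118 they were 146 and 334, and with each gene without its top cell 258 and 228, both chosen after seeing the data. The share of macrophages, 15.2% in Lin28+/cKit+ and 18.9% in Lin28+/cKit-, was 24.5% and 24.5% with a threshold of 0.75, 5.61% and 7.34% with 1.5, 44.9% and 65.7% with Timd4 ignored, and 28.4% and 43.2% in thinned cells. Without Vsig4 in the mean, added after seeing the data, it was 23.7% in Lin28+/cKit+ and 23.8% in Lin28+/cKit-. Of the named genes past 1.5-fold, the log2 ratio changed sign for Tnf (-0.077 with a threshold of 1.5, -0.033 with Timd4 ignored), for Xist (-0.019), Hes1 (0.018) and Ccl8 (-0.25) with Timd4 ignored, and for Pnp (-0.81), Twf2 (-0.16) and Ccl8 (-0.078) in thinned cells. Of those under 1.5-fold it changed sign for Cdkn1a (-1.22), Cx3cr1 (-0.14), Igf1 (0.23) and Lyve1 with a threshold of 1.5, and for Il1b (0.26) with 0.75. With Timd4 ignored it did so for Fcna (-0.46), Retnla (-0.64), Hmox1 (-0.24) and H2-Aa (0.071), and in thinned cells for Mrc1 (0.063). Over the 18 alternatives the log2 ratio of Retnla ranged from -0.64 to 4.78, against 0.20 in the main setting. Of 396 list medians 16 moved. The cause was not tested, except that fewer genes or cells were counted under stricter limits. With 1 library per group no spread between replicates is known, and genes of few UMIs have wide intervals. No paired analysis was possible because each group has 1 library and the result comes from no test.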
